A study of Mus musculus with 18 samples.

Results

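The genes for MHC class II antigen presentation and for costimulation of T cells were followed in Cx3cr1-cre/ERT2; NuTRAP mouse brain. The 9 genes, of 36172 in the file, were chosen by gene symbol: H2-Aa, H2-Ab1, H2-Eb1, Cd74, Ciita, H2-DMa, Cd40, Cd80 and Cd86. All groups carried the transgenes Cx3cr1-Cre/Ert2+ and NuTRAP+, and all mice received tamoxifen (100 mg/kg daily for 5 days) at about 3 months of age, after which cells that express Cx3cr1 make an EGFP-tagged ribosomal protein. Bacterial lipopolysaccharide (LPS) was injected intraperitoneally at 5 mg/kg 3 to 4 weeks later, PBS served as vehicle, and brain tissue was taken after 24 h. The input fraction is RNA of the supernatant left after the homogenate of one brain hemisphere was centrifuged. The positive fraction is RNA on tagged ribosomes captured from that supernatant with an anti-GFP antibody by translating ribosome affinity purification (TRAP). Animals numbered 9 (6 female, 3 male), and sex was not balanced, with 2 females and 2 males in the PBS groups, 4 females and 1 male in Positive LPS, and 3 females and 1 male in Input LPS. The groups used were Positive PBS and Input PBS, of 4 libraries each from 4 animals, and Positive LPS and Input LPS, of 5 and 4 libraries from 5 animals. A library is named by its group and the number of its animal. Since 271 had only 1250 counts in its input library, that library was not used, which left 17 of 18. Cx3cr1 is expressed by microglia and also by macrophages at the borders of the brain, so the tag is not restricted to microglia.

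MHC class II molecules are pairs of an alpha and a beta chain that present peptides to CD4+ T cells. H2-Aa and H2-Ab1 encode the chains of I-A, and H2-Eb1 encodes the beta chain of I-E. Cd74 encodes the invariant chain, which occupies the peptide groove until the molecule reaches the endosome, and H2-DMa encodes a subunit of the H2-DM complex that exchanges the invariant chain remnant for peptide. Ciita encodes the class II transactivator, which drives transcription of these genes through factors bound to the X and Y boxes of their promoters. Cd80 and Cd86 are ligands of CD28 and CTLA4 on T cells, and Cd40 is the receptor for CD40 ligand. In the brain, resting microglia are known for low class II levels, whereas border macrophages and dendritic cells can express more.

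The promoters below are shown because the class II genes are defined by shared elements at their start sites. RefSeq windows of 300 bases (250 before and 50 after the annotated start, GRCm38.p6) were matched by symbol for 4 of the 9 genes, H2-Aa, H2-Eb1, H2-DMa and Cd80. The first pair is printed with H2-Ob and H2-DMb1, genes of the same pathway list. Capitals mark the Y box core GATTGG, the letters ACNGATG from the X box, and the cyclic AMP response element TGACGTCA, on either strand.
H2-Aa (chr17:34287774-34288073, minus strand): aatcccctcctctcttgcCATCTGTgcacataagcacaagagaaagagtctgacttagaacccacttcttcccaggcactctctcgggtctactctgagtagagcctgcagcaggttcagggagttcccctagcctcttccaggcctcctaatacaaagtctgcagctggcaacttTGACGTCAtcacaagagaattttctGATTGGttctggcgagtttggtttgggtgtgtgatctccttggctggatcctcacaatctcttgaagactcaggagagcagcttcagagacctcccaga
H2-Eb1 (chr17:34305617-34305916, plus strand): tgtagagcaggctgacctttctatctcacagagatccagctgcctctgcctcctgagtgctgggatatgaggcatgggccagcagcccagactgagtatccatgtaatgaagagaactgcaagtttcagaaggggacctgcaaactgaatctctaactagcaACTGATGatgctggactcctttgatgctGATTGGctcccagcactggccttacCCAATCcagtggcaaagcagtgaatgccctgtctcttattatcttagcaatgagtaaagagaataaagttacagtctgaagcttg
H2-Ob (chr17:34238655-34238954, plus strand): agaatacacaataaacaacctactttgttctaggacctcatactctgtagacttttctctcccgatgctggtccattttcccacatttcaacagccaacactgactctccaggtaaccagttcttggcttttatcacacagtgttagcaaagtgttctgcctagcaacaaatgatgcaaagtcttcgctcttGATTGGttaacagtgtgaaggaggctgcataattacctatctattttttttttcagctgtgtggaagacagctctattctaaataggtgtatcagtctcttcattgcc
H2-DMb1 (chr17:34152941-34153240, plus strand): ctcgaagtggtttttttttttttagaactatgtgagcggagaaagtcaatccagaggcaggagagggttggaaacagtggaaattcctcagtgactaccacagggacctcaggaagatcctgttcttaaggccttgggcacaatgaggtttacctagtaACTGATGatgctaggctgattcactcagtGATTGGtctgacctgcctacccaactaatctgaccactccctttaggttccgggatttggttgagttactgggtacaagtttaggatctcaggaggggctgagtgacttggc

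GATTGG on the plus strand of the gene began 49 bases before the annotated start in H2-Aa, 60 in H2-Eb1, 58 in H2-Ob and 62 in H2-DMb1. Of 32851 promoter windows in the table, 16.1% held GATTGG on either strand. ACNGATG lay 88 bases before the start of H2-Eb1 and 91 before that of H2-DMb1, and 9.85% of windows held it. H2-Aa held TGACGTCA 74 bases before its start (1.79% of windows) and matched ACNGATG only on the other strand, 232 bases before the start. Both GATTGG and ACNGATG were present in 1.52% of windows. The window of Cd80 held none of these letters. The letters were chosen after class II promoters had been read, and a match is a description of sequence, not of a bound factor. H2-Eb1 and H2-DMb1 carried both letter groups in like positions. H2-Oa, a gene of the same pathway list, also held GATTGG (44 bases before its start) and ACNGATG (137 bases before). No window was matched for Cd74. Whether these letters relate to the values after LPS was not tested.

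In the files (mm10) H2-Aa lies at chr17:34282751-34287771, H2-Ab1 at chr17:34263227-34269418, H2-Eb1 at chr17:34305867-34316674 and H2-DMa at chr17:34135671-34138535, within the MHC. Ciita lies at chr16:10480072-10527564, Cd80 at chr16:38458933-38486932, Cd86 at chr16:36603869-36666077 and Cd40 at chr2:165055636-165071654. The values below are counts summed over each gene and divided by the size factor of the library (normalised counts). Total counts of the 17 libraries ranged from 22968834 to 35123335, at which 3 counts in a library, taken as the limit of detection, correspond to between 2.27 and 3.92 normalised counts. Enrichment of the positive fraction was checked with 13 microglia marker genes, of which 13 were higher than in input in PBS animals. Cx3cr1 was at 14814 ± 1125 normalised counts (SD, n = 4) in Positive PBS. Border-associated macrophage markers were also higher, 10 of 10, with a median log2 difference of 3.94 against 4.23 for the microglia markers. The check therefore does not separate microglia from these macrophages. RNA of other cell types was also present in the positive fraction. Neuron markers summed to between 205273 and 237369 normalised counts in Positive PBS and between 201811 and 212246 in Input PBS, with 2 of 8 higher in the positive fraction and 6 not called (median log2 difference 0.03). Of 8 astrocyte markers 1 was higher, 3 were lower and 4 were not called (median -0.25), of 9 endothelial markers 8 were higher (median 1.46), and 8 of 8 oligodendrocyte markers were lower (median -2.39). The part of these cells in the results below was not tested. In bulk fractions, fewer cells of a type and less RNA per cell cannot be told apart.

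H2-DMa was listed at 0 in all 18 libraries and was not tested. Its partner subunit genes were measured, with H2-DMb1 at 720 and H2-DMb2 at 72.4 normalised counts on average in Positive PBS. The 2 promoter windows listed for H2-DMa lie upstream of the gene as the files place it and were not used. The other 8 genes passed the filter of over 20 normalised counts in every library of at least 1 group. Ciita passed through Input PBS only and Cd40 through Positive LPS only, the groups in which each was highest. Class II genes have close relatives in the MHC, and fractional counts may have been split among them, which leaves levels of single class II genes uncertain to that extent.

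**Figure D1:**
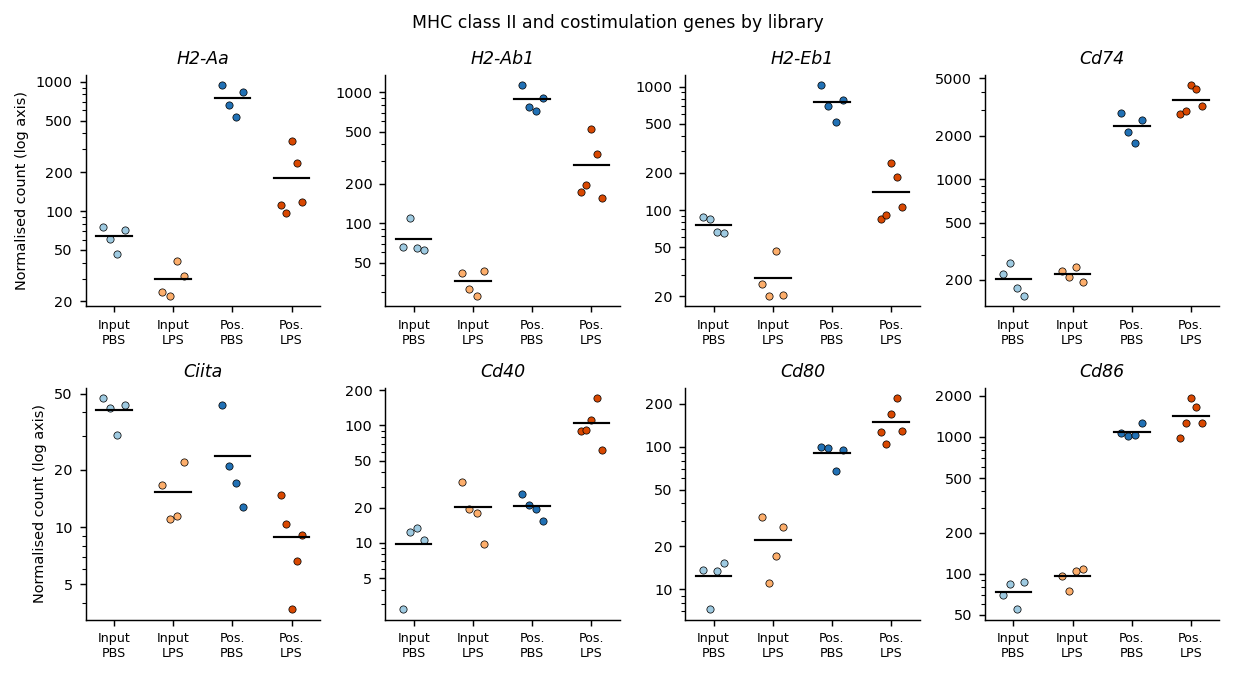
Normalised counts (log axis) of the 8 measured genes in each library, by fraction and treatment; points are libraries and lines are group means. The class II chain genes were lower in Positive LPS than in Positive PBS with no overlap of libraries, Cd40 was higher with no overlap, and Ciita was lower after LPS with overlap in the positive fraction and without overlap in input.

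The first comparison asked how the genes differed between LPS and PBS animals in the positive fraction. The class II chain genes fell, between 3.16- and 5.34-fold, whereas the invariant chain gene Cd74 rose 1.52-fold. Ciita fell 2.71-fold. Among the costimulatory genes Cd40 rose 5.06-fold and Cd80 1.66-fold, and Cd86 did not pass the test. Of the 8 genes tested, 7 were called (edgeR quasi-likelihood test, Benjamini-Hochberg adjusted p under 0.05 together with the fold threshold of the study's methods), 3 higher and 4 lower, where 33.8% of all 14803 genes were called, 19.0% higher and 14.9% lower. The median log2 fold change of the 8 genes was -0.53, against 0.01 over all genes tested. How many of all genes separate without overlap between groups was not counted, here and below.

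H2-Aa was at 941, 662, 530 and 838 normalised counts in Positive PBS (animals 268, 272, 273 and 506) and at 111, 96.3, 347, 234 and 118 in Positive LPS (266, 267, 270, 271 and 507). Every LPS library was below every PBS library, with animals 270 and 271 nearest to the PBS group. The log2 fold change of H2-Aa was -2.03 (SE 0.31, adjusted p 4.77e-05). H2-Ab1, its partner chain, was at 1134, 767, 723 and 904 in PBS and at 174, 197, 528, 336 and 157 in LPS. Again the groups did not overlap and animal 270 was highest among LPS libraries. The log2 fold change of H2-Ab1 was -1.66 (SE 0.29, adjusted p 0.000177).

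H2-Eb1 showed the largest fall of the 8 genes, with 1030, 702, 517 and 780 normalised counts in Positive PBS and 84.5, 91.2, 242, 184 and 105 in Positive LPS. Its log2 fold change was -2.42 (SE 0.29, adjusted p 4.22e-06). The highest LPS library (242) was below the lowest PBS library (517). The fall of all 3 chain genes was called under each of 28 alternatives, with log2 fold changes from -2.40 to -1.85 for H2-Aa, from -2.03 to -1.5 for H2-Ab1 and from -2.70 to -2.23 for H2-Eb1.

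Cd74 did not follow the chains with which its product is assembled. It was at 2883, 2110, 1784 and 2594 normalised counts in Positive PBS and at 2832, 2958, 4501, 4248 and 3208 in Positive LPS. The groups overlapped by 1 library pair, PBS animal 268 and LPS animal 266, and the fitted change was 0.60 (log2, SE 0.17, adjusted p 0.00799). This call held under all 28 alternatives, from 0.49 to 0.71.

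The divergence was measured within each library as the log2 ratio of Cd74 to the mean of H2-Aa, H2-Ab1 and H2-Eb1, which does not depend on scaling. In the positive fraction it averaged 1.57 ± 0.0655 across the 4 PBS libraries (SD) and 4.34 ± 0.435 across the 5 LPS libraries, a difference of 2.76. All 5 LPS libraries (3.67 to 4.69) were above all 4 PBS libraries (1.48 to 1.63), with an exact two-sided permutation p of 0.0159, the smallest this design can give (adjusted p 0.0476 over 6 tests of 3 ratios in 2 fractions). In input the ratio was 1.51 ± 0.198 in PBS and 2.87 ± 0.22 in LPS (n = 4 each), again with no overlap (exact permutation p 0.0286, the smallest possible here, adjusted p 0.0571). These ratio tests were chosen after the values had been seen, so their p-values add no support to the differences above.

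**Figure D2:**
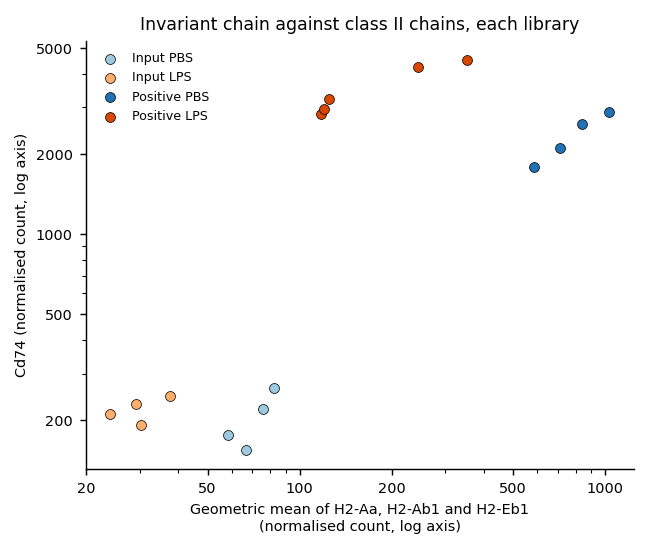
Cd74 (y axis) against the geometric mean of H2-Aa, H2-Ab1 and H2-Eb1 (x axis), both as normalised counts on log axes, with 1 point per library. Within Positive PBS and within Positive LPS both quantities rise together, and the LPS libraries lie to the left of the PBS libraries at Cd74 values of 2832 or more.

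Ciita was the least abundant of the 8 genes per kilobase of exon in the positive fraction. It was at 43.6, 20.9, 17 and 12.7 normalised counts in Positive PBS and at 14.7, 10.4, 3.71, 6.63 and 9.05 in Positive LPS. The groups overlapped, since PBS animal 506 was below LPS animal 266, and the log2 fold change was -1.44 (SE 0.40, adjusted p 0.00767). Without PBS animal 268, the highest library, the change was -0.96 and was not called (adjusted p 0.0561).

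Cd40 had the largest rise. It was at 26.1, 20.9, 19.6 and 15.3 normalised counts in Positive PBS and at 89.4, 92.2, 111, 170 and 61.4 in Positive LPS, with no overlap. The log2 fold change was 2.34 (SE 0.38, adjusted p 8.2e-05) and the call held under all 28 alternatives, from 2.10 to 2.49.

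Cd80 and Cd86 share their receptors on T cells. Cd80 was at 99.1, 98.0, 67.9 and 94.3 normalised counts in Positive PBS and at 127, 104, 169, 219 and 129 in Positive LPS. The groups did not overlap, yet the lowest LPS library (104) was close to the highest PBS library (99.1), and the log2 fold change was 0.73 (SE 0.27, adjusted p 0.0358). This call was lost in 9 of 28 alternatives, 5 of which left out 1 library: LPS animal 270 (0.69, adjusted p 0.0625) or 271 (0.56, 0.103), or PBS animal 272 (0.78, 0.0571), 273 (0.62, 0.106) or 506 (0.75, 0.0605). The other 4 were sex as a term (0.55, adjusted p 0.0778), leaving out animals 506 and 507 (0.80, 0.0852), limma on log2 counts (0.70, 0.0727) and the deposited log2 values (0.75, 0.0669). Cd86 was at 1076, 1024, 1026 and 1257 in PBS and at 985, 1263, 1916, 1669 and 1267 in LPS, with overlap, and its log2 fold change of 0.37 (SE 0.17) had an adjusted p of 0.0781. Without LPS animal 266, the only LPS library below the PBS group, Cd86 was called (0.49, adjusted p 0.016), and so it was with all 18 libraries (0.41, 0.033). In 26 of 28 alternatives Cd86 stayed uncalled.

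Cd40 was also set against Cd86 within libraries. This ratio was chosen after Cd40 was seen to separate the same libraries, and Cd40 passed the filter through Positive LPS only. Its p-value therefore adds no support to the rise of Cd40. The log2 ratio of Cd40 to Cd86 was -5.76 ± 0.426 in Positive PBS and -3.80 ± 0.444 in Positive LPS, a difference of 1.96 with no overlap (exact permutation p 0.0159, the smallest possible with n = 4 and 5, adjusted p 0.0476). For Cd80 relative to Cd86 the difference was 0.36, from -3.62 ± 0.252 to -3.26 ± 0.311 (exact permutation p 0.111, adjusted p 0.167). In input the groups overlapped for both ratios. The difference there was 0.77 for Cd40 over Cd86 (exact permutation p 0.343, adjusted p 0.411). For Cd80 over Cd86 it was 0.38 in input (exact permutation p 0.457, adjusted p 0.457).

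Levels were compared between genes per kilobase of exon (GENCODE vM21, union of basic transcripts). In Positive PBS the order was Cd74 (1654 ± 346 normalised counts per kb, SD, n = 4), H2-Ab1 (728 ± 152), H2-Aa (659 ± 162), H2-Eb1 (454 ± 127), Cd86 (432 ± 43.4), Cd80 (24.3 ± 3.99), Cd40 (6.86 ± 1.5) and Ciita (2.86 ± 1.67). H2-Ab1 and H2-Aa, and likewise H2-Eb1 and Cd86, differed by less than the SD of either. In Positive LPS the order became Cd74 (2507 ± 544, n = 5), Cd86 (559 ± 145), H2-Ab1 (230 ± 129), H2-Aa (161 ± 95.4), H2-Eb1 (84.7 ± 41.4), Cd80 (40.4 ± 12.2), Cd40 (35.1 ± 13.6) and Ciita (1.08 ± 0.501). In Positive LPS the mean of Cd86 was thus above that of each class II chain gene, and Cd80 and Cd40 differed by less than their SD.

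The same comparison in input asked what was visible in the brain supernatant before ribosomes were captured. H2-Eb1 and Ciita fell, and none of the 8 genes was called higher. These 2 calls of 8 compare with 12.4% of all genes, 7.16% higher and 5.26% lower, and the median log2 fold change of the 8 genes was -0.47 against 0.00 over all genes.

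H2-Eb1 was at 87.5, 84.6, 66.5 and 65.7 normalised counts in Input PBS (animals 268, 272, 273 and 506) and at 25.3, 20.2, 46.8 and 20.4 in Input LPS (266, 267, 270 and 507), without overlap (log2 fold change -1.43, SE 0.36, adjusted p 0.0115). Without animals 506 and 507 the change was -1.36 with an adjusted p of 0.0789. Ciita was at 47.4, 42.3, 30.4 and 43.8 in Input PBS and at 16.6, 11.0, 11.5 and 21.9 in Input LPS, also without overlap (-1.41, SE 0.37, adjusted p 0.0138), and with the deposited log2 values the change was -1.42 with an adjusted p of 0.0564 (limma). The 2 genes were lower in 4 of 4 LPS input libraries than in any PBS input library.

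H2-Aa (63.6 ± 13 in Input PBS, 29.6 ± 8.73 in Input LPS, SD, n = 4 each) and H2-Ab1 (75.9 ± 23.1 and 36.0 ± 7.60) were likewise separated without overlap, with values on the log2 scale of -1.09 for H2-Aa (SE 0.39, adjusted p 0.0679) and -1.06 for H2-Ab1 (SE 0.36, adjusted p 0.0584). They missed the threshold in the fit of all 17 libraries and were past it with DESeq2 (adjusted p 0.0162 and 0.0115) and in a fit of the input libraries alone (0.0109 and 0.0111). Leaving out LPS animal 270 of the positive fraction, which enters only the estimate of the spread, also brought them past it (0.0207 and 0.0131). H2-Aa was past it without Positive LPS 267 as well (0.0497), and H2-Ab1 without Positive LPS 266 (0.0474) or 507 (0.0434). Both were past it with limma on log2 counts (0.0368 and 0.0326) and on the deposited log2 values (0.0384 and 0.036). So were H2-Aa with sex as a term (-1.26, adjusted p 0.0182) and H2-Ab1 with all 18 libraries (-1.03, 0.0435). H2-Aa stayed uncalled in 21 of 28 alternatives and H2-Ab1 in 20 of 28.

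Cd74 in input (204 ± 48.3 and 221 ± 23.3) was not called (log2 fold change 0.11, SE 0.19, adjusted p 0.748). Cd86 was at 74.1 ± 14.7 in Input PBS and 96.0 ± 14.6 in Input LPS (0.38, SE 0.20, adjusted p 0.239). Cd40 (9.72 ± 4.80 and 20.1 ± 9.70) and Cd80 (12.4 ± 3.53 and 22.0 ± 9.61) were near the limit of detection in part of the input libraries. On the log2 scale Cd40 differed by 1.04 (SE 0.44, adjusted p 0.131) and Cd80 by 0.82 (SE 0.35, adjusted p 0.129). Without Input LPS 267 Cd80 was called (1.03, adjusted p 0.0484).

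**Figure D3:**
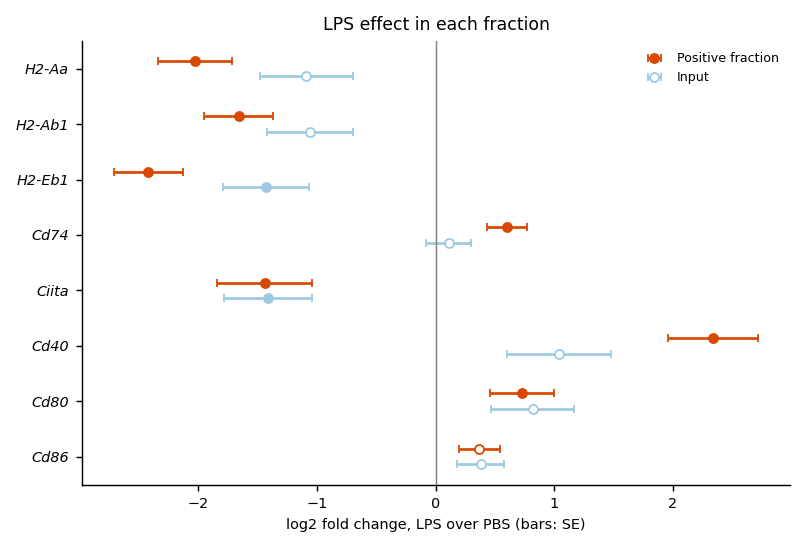
Log2 fold change of LPS over PBS with its SE for each gene, in the positive fraction (dark) and in input (light). Filled points passed the test and open points did not; Cd74 and the class II chain genes lie on opposite sides of 0 in the positive fraction.

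Whether LPS acted differently on the 2 fractions was tested as the difference of the LPS effects. None of the 8 genes was called by edgeR, where 6.88% of all genes were, and 2 of the 8, H2-Eb1 and Cd40, had an unadjusted p under 0.05 (0.0469 and 0.0402). DESeq2, and limma without a block, also called 0 of the 8. The difference was -0.94 for H2-Aa (log2, SE 0.50, adjusted p 0.32), -0.99 for H2-Eb1 (SE 0.46, 0.245), -0.60 for H2-Ab1 (SE 0.46, 0.538), 0.48 for Cd74 (SE 0.25, 0.314) and 1.30 for Cd40 (SE 0.59, 0.227). Ciita (-0.03, SE 0.45), Cd80 (-0.09, SE 0.42) and Cd86 (0.00, SE 0.20) had differences near 0. Input and positive libraries of an animal come from the same hemisphere, so the fit was repeated with animal as a replicate block. There H2-Aa (-1.15, adjusted p 0.00696) and H2-Eb1 (-1.11, adjusted p 0.00565) were called, and calls over all genes rose from 1018 to 1915.

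How strongly the genes were concentrated on tagged ribosomes was read from positive fraction against input. In PBS animals 6 of the 8 genes were called, 6 of them higher, where 39.8% of all genes were called and 21.0% called higher. The log2 enrichment was 3.89 for Cd86 (SE 0.20), 3.54 for H2-Aa (SE 0.36) and H2-Ab1 (SE 0.34), 3.52 for Cd74 (SE 0.20), 3.31 for H2-Eb1 (SE 0.33) and 2.84 for Cd80 (SE 0.33). The 13 microglia markers had a median of 4.23 in the same fit, and the 10 border-associated macrophage markers had a median of 3.94.

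Cd40 and Ciita differed from these. Cd40 had a log2 enrichment of 1.08 in PBS animals (SE 0.45, adjusted p 0.0586), and was past the threshold with the replicate block (1.11, adjusted p 0.0314). It was also past the threshold without Input LPS 266 (1.09, adjusted p 0.0461), Input LPS 507 (1.09, 0.047) or Positive LPS 271 (1.08, 0.0434). The same held with DESeq2 (1.08, adjusted p 0.042), limma on log2 counts (1.15, 0.0328) and the deposited log2 values (1.16, 0.0436). In 20 of 27 alternatives Cd40 stayed uncalled. Ciita was lower in the positive fraction than in input, with -0.78 (SE 0.36, adjusted p 0.0842) and, with the replicate block, -0.86 (adjusted p 0.0292). Without Positive PBS 268 Ciita was called as well (-1.26, adjusted p 0.00797), and so it was with all 18 libraries (-0.90, 0.0492). In 25 of 28 alternatives Ciita stayed uncalled.

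In LPS animals 7 of the 8 genes were called, all 7 higher in the positive fraction, where 53.4% of all genes were called and 27.6% called higher. Cd40 was now enriched by 2.39 (log2, SE 0.37, adjusted p 2.29e-05), Cd74 by 4.01 (SE 0.20), Cd86 by 3.88 (SE 0.20) and Cd80 by 2.75 (SE 0.30). The chain genes were enriched by 2.95 (H2-Ab1, SE 0.34), 2.61 (H2-Aa, SE 0.36) and 2.32 (H2-Eb1, SE 0.34). Ciita was again lower in the positive fraction (-0.81, SE 0.40, adjusted p 0.0915), and was called without Positive LPS 266 (-1.04, adjusted p 0.0417). Each of these enrichments shares its libraries with the LPS comparisons above, so the values are set side by side without a further test.

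Per animal, the log2 ratio of H2-Aa in the positive fraction to input was 3.64, 3.44, 3.51 and 3.55 in PBS animals 268, 272, 273 and 506, and 2.24, 2.13, 3.08 and 1.89 in LPS animals 266, 267, 270 and 507. That of H2-Eb1 was 3.56, 3.05, 2.96 and 3.57 in PBS and 1.74, 2.17, 2.37 and 2.36 in LPS. For both genes the PBS and LPS animals did not overlap, which describes these values only, since the share of all genes that separate so was not counted. For H2-Ab1, the third chain gene, they overlapped, with 2.80 to 4.11 in PBS and 1.87 to 4.24 in LPS animals. The microglia markers, summed, had ratios of 3.89 to 4.28 in PBS and 3.70 to 4.16 in LPS animals, which overlapped. For Cd40 the ratio of PBS animal 268 (3.26) stood above the others (0.54 to 0.76), and its input value of 2.73 normalised counts was at the limit of detection.

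**Figure D4:**
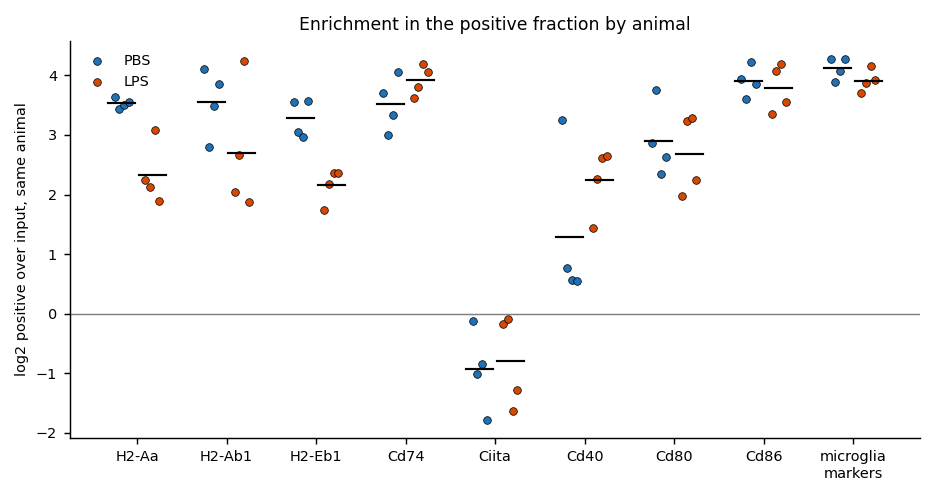
Log2 ratio of positive fraction to input within each animal, for 4 PBS and 4 LPS animals, with group means as lines; the last column sums 13 microglia markers. Ciita lies below 0 in every animal, and H2-Aa and H2-Eb1 are lower in LPS than in PBS animals without overlap, whereas H2-Ab1 overlaps.

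Deviations from group means were correlated over the 9 positive libraries as a description of which genes varied together; these points share libraries and depth. H2-Aa, H2-Ab1 and H2-Eb1 had r of 0.94 to 0.98 with each other, and Cd74 had r of 0.86 to 0.96 with them. Ciita had r of -0.49 to -0.29 with the chain genes and Cd74. In the 8 input libraries the chain genes had r of -0.22 to 0.66 with each other. Animals 270 and 271 were the highest of Positive LPS for all 3 chain genes, Cd74, Cd40, Cd80 and Cd86, and the lowest for Ciita.

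By the same measure, the non-member genes most like the mean of H2-Aa, H2-Ab1, H2-Eb1 and Cd74 among 12522 genes with at least 100 normalised counts on average were Frmpd1 and Phf3 (r of 0.98 each over 9 positive libraries), Rlf (0.97), Fkbp7 and Cd164 (0.96 each). Over the 8 input libraries their r ranged from 0.19 to 0.69, and none was called for LPS in the positive fraction. Most like Cd40 were Triobp (0.98), Rgp1 (0.96), Zbed3 (0.95), Mbd1 (0.94) and Emp1 (0.93), with r of -0.43 to 0.51 in input. Of these Emp1, an epithelial membrane protein gene, had the largest LPS effect (log2 fold change 1.79, adjusted p 9.63e-05).

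The other genes of class II presentation were mixed. Of 22 genes on the list 20 were in the file and 18 were tested, and in the positive fraction 3 rose with LPS, 2 fell and 13 were not called (median 0.10). Ifi30, a lysosomal thiol reductase that unfolds antigens, rose from 1145 ± 103 to 5035 ± 1472 normalised counts (log2 fold change 2.14, SE 0.21, adjusted p 3.32e-07). Ctsl, a protease that can trim the invariant chain, rose by 1.72 (SE 0.09), and March1, a ubiquitin ligase that directs class II and CD86 to degradation, rose by 0.80 (SE 0.14, adjusted p 0.000243). H2-Ob and H2-Oa, the chains of H2-DO, which inhibits H2-DM, were lower, with log2 fold changes of -1.86 (SE 0.32, adjusted p 0.000174) and -0.89 (SE 0.27, adjusted p 0.0124).

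H2-DMb1, whose promoter is printed above, went from 720 ± 25.2 in Positive PBS to 923 ± 233 in Positive LPS (0.36, SE 0.18, adjusted p 0.13). Ctss, the main protease of the invariant chain in antigen-presenting cells, was at 46494 in PBS and 47690 in LPS (0.04, SE 0.11, adjusted p 0.813). The subunits of the factors that bind the X and Y boxes, Rfx5, Rfxap, Rfxank, Nfya, Nfyb and Nfyc, and Creb1, had log2 fold changes between -0.28 and 0.22, and none was called. Creb1 (-0.28, adjusted p 0.0225) and Rfx5 (0.22, adjusted p 0.0342) missed only the fold threshold. In input 3 genes of the list rose (Ifi30, 1.16; Ctsl, 1.05; Rfx5, 0.39), none fell and 15 were not called. The LPS effect on Ctsl was larger in the positive fraction (difference 0.66, SE 0.12, adjusted p 0.00216), which was the only call of the difference on this list.

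Costimulatory and coinhibitory ligands mostly rose. Of 17 genes 10 were tested, and in the positive fraction 7 rose, 2 fell and 1 was not called (median 0.74). Icam1, the adhesion ligand of LFA-1, rose from 573 ± 57.9 to 2716 ± 794 (2.24, SE 0.23, adjusted p 5.61e-07). Cd274, which encodes PD-L1, rose from 195 ± 29.4 to 798 ± 289 (2.03, SE 0.23, adjusted p 1.55e-06), and Lgals9, a galectin, rose by 0.86 (SE 0.12). Cd276 (-0.61, SE 0.15, adjusted p 0.00362) and Cd24a (-0.57, SE 0.17, adjusted p 0.0127) were lower. In input 6 of the 10 rose, among them Icam1 (2.83), Cd48 (1.38) and Cd274 (1.35), and none fell. None of the 10 was called for the difference between fractions.

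Of 15 tested genes of CD40 signalling 11 rose in the positive fraction, 1 fell and 3 were not called (median 0.84). Tnfaip3, which encodes the inhibitor A20, rose from 339 ± 72.6 to 3157 ± 1114 (3.22, SE 0.22, adjusted p 5.86e-09), Traf1, an adaptor, by 2.22 (SE 0.47, adjusted p 0.00111) and Nfkb2, an NF-kB subunit of the noncanonical pathway, by 2.07 (SE 0.21, adjusted p 6.58e-07). Traf5 was lower (-0.91, SE 0.24, adjusted p 0.00472). In input 6 of the 15 rose and none fell. The difference between fractions was called for 5 of the 15, all higher in the positive fraction, led by Traf1 (2.75, SE 0.68), Tnfaip3 (1.72, SE 0.31) and Nfkbia (0.91, SE 0.24). Cd40lg, the ligand, did not exceed 2.21 normalised counts in any of the 17 libraries.

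**Figure D5:**
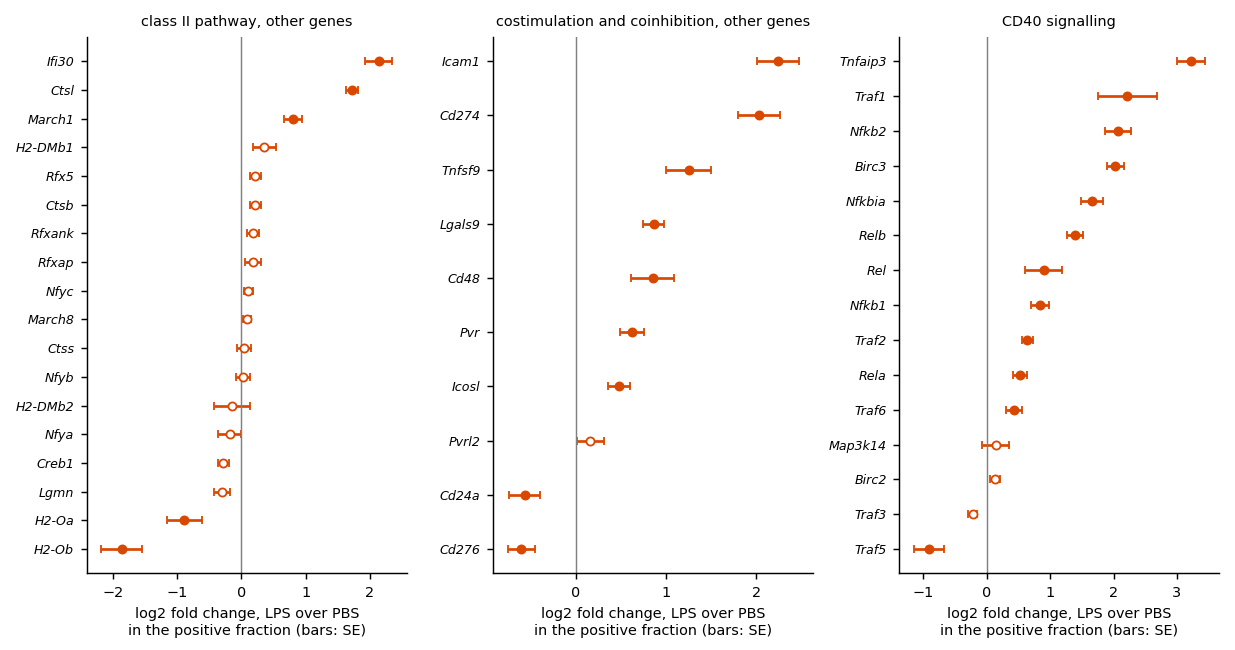
Log2 fold change of LPS over PBS in the positive fraction, with its SE, for the tested genes of the class II pathway, of costimulation and coinhibition, and of CD40 signalling. Filled points passed the test; 5 of 18, 9 of 10 and 12 of 15 genes did.

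Interferon gamma is the main known inducer of Ciita, and its gene Ifng did not exceed 2.61 normalised counts in these brain libraries at 24 h. The paper reports raised interferon gamma in the blood at an earlier time after LPS. The Ifng counts therefore do not measure exposure to interferon gamma, which was not tested. Of 13 tested genes of the interferon gamma pathway and of Ciita regulation, 6 rose in the positive fraction, 2 fell and 5 were not called (median 0.34). Socs3, a feedback inhibitor of cytokine receptors, rose by 3.56 (SE 0.22, adjusted p 1.36e-09) and Irf8, a factor of the myeloid lineage, by 0.72 (SE 0.11, adjusted p 4.19e-05). Prdm1, which encodes a repressor of Ciita, was lower (-0.82, SE 0.24, adjusted p 0.0107). Irf4 was lower as well (-0.83, SE 0.29, adjusted p 0.0306), and is named here after its values were seen to complete the count. In input 4 of the 13 rose (Socs3 by 2.25 and Irf1 by 1.03 among them) and none fell.

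Of the T cell proteins that bind these molecules, Lag3 and Cd4 passed the filter. Lag3, a class II binding receptor, was enriched in the positive fraction of PBS animals (4.48, SE 0.23), and was lower after LPS there (-0.93, SE 0.18, adjusted p 0.000544). Cd4 was also lower (-0.57, SE 0.14, adjusted p 0.00351). Cd28, Ctla4 and Cd40lg did not pass the filter.

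Markers of other cells that can carry class II were read beside these results. Of 10 border-associated macrophage markers 5 were lower in Positive LPS (Mrc1 -1.33, Lyve1 -2.39, Pf4 -0.87, Cbr2 -1.36 and Folr2 -0.64), Siglec1 was higher (2.53) and 4 were not called. Their summed level was 5361 to 10376 normalised counts in Positive PBS and 4598 to 7465 in Positive LPS. Among PBS animals the chain genes were highest in 268 and 506, which also had the highest sums (10376 and 10253). Among LPS animals they were highest in 270 and 271, which had the lowest sums (4720 and 4598). The part of these cells in the class II values was not tested.

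Of 7 tested dendritic cell markers 2 were lower (Cd209a -3.84, Flt3 -0.37), 2 higher (Ccl17 3.21, Ccl22 4.40) and 3 not called, with sums of 1097 to 1418 in Positive PBS and 1104 to 1732 in Positive LPS. The most abundant in Positive PBS, Flt3 (573, against 584 in Input PBS) and Zbtb46 (218 against 304), were not enriched there. Cd209a, which was enriched, went from 163 to 11.1 with LPS. Of 5 monocyte markers Ccr2 (-2.33) and Fn1 (-0.79) were lower and S100a4 (0.99) higher, with sums of 1272 to 3120 and 729 to 1661. Fn1, the most abundant of them (1475 in Positive PBS, 946 in Input PBS), was not called as enriched in PBS animals. The sums therefore do not measure the content of dendritic cells or monocytes. The microglia markers themselves were lower for 8 of 13 genes (P2ry12 by -2.47) and higher for 2, with Cx3cr1 (-0.20) and Csf1r (-0.16) not called, and their sum was 217705 to 268023 in PBS and 163280 to 226362 in LPS. The part of each of these in the class II values was not tested.

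Of the B cell markers Ighm was listed at 0 in all 17 libraries and Ms4a1 did not exceed 3.81 normalised counts, whereas Cd79b rose in the positive fraction (1.35). Of the T cell markers Trbc2 was at 0, Cd3g did not exceed 3.50, and Lck, the single tested marker, was not called (0.20). Of 6 tested neutrophil markers 5 rose in Positive LPS, with sums of 140 to 317 in PBS and 428 to 1153 in LPS, while Ly6g was listed at 0. Endothelial markers were lower for 4 of 9 genes and higher for 1, astrocyte markers lower for 3 of 8 and higher for 1, oligodendrocyte markers lower for 3 of 8 and neuron markers lower for 4 of 8.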

How the data were processed

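The data were TRAP-RNAseq libraries of input and positive fractions (polyA selection, strand-specific paired-end reads). The authors aligned the reads in Strand NGS to Mm10 with RefSeq gene models and deposited estimated counts per gene, 81.6% of whose nonzero values were not whole, and normalised log2 values after DESeq scaling (mm10 and DESeq are also named in the submitters' processing notes). Columns of the authors' own comparisons were not used. Counts were rounded and scaled by median-of-ratios size factors over 15766 genes of 17 libraries, and the nearly empty library (1250 counts) was left out. Genes with over 20 normalised counts in every library of at least 1 group were kept (14803), as in the study's filter. Counts were fitted with edgeR 4.0.16 (quasi-likelihood, 1 mean per group, 13 residual degrees of freedom, R 4.3.3), which takes the place of the study's analysis of variance because the values are counts. Calls required an adjusted p under 0.05 (Benjamini-Hochberg, over all genes tested) and a fold change over 1.25. Adjusted p-values and log2 fold changes with SE are edgeR's unless another tool is named. The fit was tested on simulated counts.

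Input and positive libraries share an animal, so animal was tried as a replicate block, fixed within animals and random for LPS effects (limma 3.58.1, correlation 0.445). Deviations of the paired libraries from their group means correlated at r of 0.16 to 0.52 across genes. Alternatives were TMM scaling, DESeq2 1.42.0, limma on log2 of normalised counts + 1 and on the deposited log2 values, other filters, all 18 libraries, only the libraries compared, sex as a term, leaving out animals 506 and 507, and leaving out each library. Ratios within libraries were compared by exact two-sided permutation (scipy 1.17.1) and were added after the values were seen. No molecular identifiers were used, so reads are not independent molecules and detection limits include only counting error.

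The 9 genes, the pathway and marker lists and the rule for named genes were chosen with earlier results of these data known. Of each pathway list up to 3 called genes per direction with the largest change and a mean of at least 50 normalised counts are named, except that some list genes, which remain in the counts over their lists, are not reported here by name. Of the list genes H2-Ea, Sppl2a, Vsir, Spi1, Chil3 and Fcmr were not matched by symbol. Traf5 had 2 rows, of which the expressed one was used.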

Additional observations from a re-analysis of the deposited data

Results flagged for a closer look

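Among 32 groups of 4 or 5 libraries (8 genes in 4 groups), 2 held a library far from the others by Dixon's criterion, and chance alone flags about 1 in 20 groups. H2-Ab1 in Input PBS was at 110 normalised counts in animal 272, against 62.9 to 65.6 in the other libraries. Cd80 in Positive PBS was at 67.9 in animal 273, against 94.3 to 99.1 in the others, and without that library the rise of Cd80 after LPS was not called (log2 fold change 0.62, adjusted p 0.106).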

How the results depend on the processing

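Of 1134 repeats of single values under the alternatives, 1067 kept direction and call, 31 passed the threshold where the reported value had not, 12 no longer passed it and 24 changed sign. The sign changes concerned differences of the LPS effect near 0. For Ciita the difference was 0.13 with the replicate block and with limma on log2 counts, 0.08 with the deposited log2 values and from -0.26 to 0.45 without 1 library. For Cd86 it was 0.01 with TMM scaling and with all 18 libraries, 0.09 without animals 506 and 507 and from -0.13 to 0.12 without 1 library. For Cd80 it was from -0.30 to 0.14 without 1 library. The causes were not tested.

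Of the 8 genes, those called for LPS in input numbered 2, and 4 with DESeq2, with limma on log2 counts, and with only the libraries compared, 1 without animals 506 and 507, and 2 to 4 without 1 library. Calls over all genes moved as well, from 1839 of 14803 to 2127 with DESeq2 and 1837 with limma on log2 counts. They were 2191 of 14640 with only the libraries compared, 1083 of 14882 without animals 506 and 507, and 1452 to 1979 without 1 library. Of the 8 genes, those called for the difference between fractions numbered 0, and 2 with the replicate block, which changed no other call of the 8 than those of Cd40 and Ciita in the enrichment in PBS animals. Without 1 library, 6 to 8 of the 8 genes were called for LPS in the positive fraction, 6 to 7 and 7 to 8 for the enrichment in PBS and LPS animals, and 0 for the difference. Over all genes these calls ranged from 4432 to 5120, from 5297 to 6066, from 7447 to 8127 and from 749 to 1263. With all 18 libraries the median log2 enrichment over all genes shifted to -0.12 in PBS and -0.11 in LPS animals, and with the deposited values to -0.13 and -0.14. Calls in PBS animals were then 2224 higher and 3698 lower, and 2283 higher and 3890 lower, against 3113 and 2785. Library depth limits Cd40, Cd80 and Ciita most, whose lowest values were within a few counts of the limit of detection. For the within-library ratios in input, leaving out 1 library gives too few arrangements to pass the threshold and was not run.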
